A study of Homo sapiens with 15 samples.

Results

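CAMKK2, ELL2, EAF2 and HPGD are 4 genes that were described here by the chromatin loops of their promoters. A gene was given every loop with a 1 kb anchor that reached within 2.5 kb of the first base of its canonical transcript (Gencode, hg19). This rule found 146 of the 505995 different loops of the series, with 41 at CAMKK2, 51 at ELL2, 49 at EAF2 and 5 at HPGD. Among the 16251 protein-coding promoters that had any loop, the median was 20 loops. The tables hold no RNA measurement, so whether androgen changed the expression of these genes was not measured here.

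The cells were LNCaP, an androgen-dependent line from a human prostate cancer. All groups were first kept for 3 days in medium with charcoal-stripped serum, which lacks steroid hormones. They then received the ethanol vehicle (the 0 m group) or 10 nM dihydrotestosterone (DHT), the strongest natural androgen. DHT was given for 30 min (the 30 m group) or for 4, 16 or 72 h. Looping was measured by HiChIP, which ligates DNA ends that lie close together in the nucleus and enriches them with an antibody, here against H3K27ac, a mark of active enhancers and promoters, or H3K4me3, a mark of active promoters. The labels list 2 H3K27ac samples and 1 H3K4me3 sample per time point, 15 in all, but each mark and time point has a single deposited value for a loop. Values set in a row below run in time order from 0 m to 72 h. Differences were therefore not tested against replicates, and each 95% interval below covers the counting error of read pairs only. The 10 tables held between 2153262 (H3K4me3, 30 m) and 10675614 (H3K4me3, 4 h) read pairs in loops. The prostate luminal markers KLK3, KLK2, TMPRSS2, FOLH1, HOXB13 and SLC45A3 had between 7 and 59 promoter loops, whereas PTPRC (blood) and MYOG (muscle) had 0, CD3E had 5, MYOD1 had 3, and the liver genes ALB, TTR and APOA1 had 2, 1 and 15.

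Androgens act on prostate cells largely through enhancers far from genes, many of which are bound by the pioneer factor FOXA1. Enhancers act on a promoter through physical proximity, which loops in HiChIP report. CAMKK2 encodes a calcium/calmodulin-dependent kinase that activates AMPK, the energy-sensing kinase, and other CaM kinases. ELL2 encodes an elongation factor for RNA polymerase II and a subunit of the super elongation complex, and EAF2 encodes a protein that binds ELL factors and stimulates their activity. HPGD encodes 15-hydroxyprostaglandin dehydrogenase, the enzyme that starts the inactivation of prostaglandins.

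The stretches just before the start sites are shown because they lie within the promoter windows that all these loops share. They were read from GRCh37 (hg19), 5′ to 3′ on the strand of the gene, with the CCAAT box, a common promoter element, in capitals. CAMKK2 is at chr12:121734513-121734762 (minus strand), ELL2 at chr5:95297556-95297805 (minus strand) and HPGD at chr4:175443640-175443889 (minus strand). For EAF2 only the stretch between its start and that of IQCB1, chr3:121553908-121554055 (plus strand), is given. IQCB1, a gene of the primary cilium, is transcribed away from EAF2 from a start 149 bp upstream.
CAMKK2: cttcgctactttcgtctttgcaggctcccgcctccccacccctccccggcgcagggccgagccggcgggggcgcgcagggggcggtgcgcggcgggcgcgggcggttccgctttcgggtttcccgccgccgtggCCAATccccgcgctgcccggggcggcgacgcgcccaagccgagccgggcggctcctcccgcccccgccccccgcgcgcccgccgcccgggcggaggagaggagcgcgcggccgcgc
ELL2: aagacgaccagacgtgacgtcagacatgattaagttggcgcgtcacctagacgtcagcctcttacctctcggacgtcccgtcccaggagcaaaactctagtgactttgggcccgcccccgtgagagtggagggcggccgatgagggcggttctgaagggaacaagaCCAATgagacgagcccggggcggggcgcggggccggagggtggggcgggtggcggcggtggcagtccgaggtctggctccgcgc
EAF2: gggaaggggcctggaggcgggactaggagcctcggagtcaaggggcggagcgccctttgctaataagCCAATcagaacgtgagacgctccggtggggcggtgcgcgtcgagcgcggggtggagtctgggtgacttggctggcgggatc
HPGD: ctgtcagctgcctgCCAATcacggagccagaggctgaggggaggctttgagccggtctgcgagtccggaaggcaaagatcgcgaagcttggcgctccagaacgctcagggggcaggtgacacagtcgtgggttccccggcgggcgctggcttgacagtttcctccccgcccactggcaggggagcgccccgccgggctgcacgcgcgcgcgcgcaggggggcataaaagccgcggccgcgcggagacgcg
Each of the 4 stretches held 1 CCAAT box on either strand, an element found in 34.3% of all 19856 promoters over the 250 bases before the start and chosen for display after the sequences were seen. The 250 bases before the CAMKK2 start were 82.8% G or C with 46 CpG dinucleotides, against 66.4% and 26 for ELL2 and 70.8% and 29 for HPGD. None of the 4 stretches held the FOXA motif TGTTTAC on either strand, which 2.06% of all promoters held. Exons of noncoding genes overlap the ELL2 and HPGD stretches.

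The far ends of the loops were searched for the FOXA motif over the 5 kb bin around each anchor. It was in 76 of 142 far bins (53.5%), against 53.2% of the 210061 anchor bins of the series, with 14 of 37 for CAMKK2, 26 of 51 for ELL2, 33 of 49 for EAF2 and 3 of 5 for HPGD. A match is a description of the letters, and binding of FOXA1 was not measured in these tables.

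The 4 promoters differed in how much contact they had. Contact here is the deposited value, read pairs after scaling between the time points of a mark, summed over the loops of a promoter. In H3K27ac the order was CAMKK2, ELL2, EAF2 and HPGD at every time point, with means over the 5 time points of 84.6, 55.2, 28.0 and 1.05. Each neighbour in that order was apart by an interval that excluded 0 at all 5 time points. In H3K4me3, EAF2 (mean 100.2) and ELL2 (98.2) were not ordered the same way across time and did not differ beyond counting error at 0 m, 16 h and 72 h. CAMKK2 (62.0) was below both and HPGD (2.46) lowest. Levels are not compared between the marks, which were scaled separately. Of the 16251 promoters with loops, 90.2% had a lower mean H3K27ac contact than CAMKK2, 79.9% than ELL2, 58.7% than EAF2 and 11.1% than HPGD. In H3K4me3 the same shares were 64.0%, 79.8%, 80.7% and 15.5%.

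The EAF2 values cannot be assigned to EAF2 alone. All 49 of its loops were also loops of IQCB1, so EAF2 below stands for the shared promoter region. At CAMKK2, 15 of 41 loops also had an anchor at another protein-coding promoter, and at ELL2 4 of 51 and at HPGD 0 of 5 did. Membership in the loop sets differed as well. CAMKK2 had 25 loops in the set called in H3K27ac and 20 in that of H3K4me3, with 4 in both, and ELL2 had 25 and 38, with 12 in both. EAF2 had 15 and 45, with 11 in both, and all 5 HPGD loops were from the H3K4me3 set.

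The first comparison asked whether the promoter contact of each gene changed with DHT, with 16 h as the time of main interest. The summed H3K27ac contact of CAMKK2 was 77.3, 86.7, 87.4, 101.5 and 70.0 in time order. In H3K4me3 it was 55.3, 52.9, 73.0, 82.7 and 45.9. The 16 h value was thus the highest of the 5 in both marks and the 72 h value the lowest. At 16 h the log2 change against 0 m was 0.39 (95% interval 0.17 to 0.62) in H3K27ac and 0.58 (0.33 to 0.83) in H3K4me3, where the ratio of 1.497 lay just under the 1.5-fold limit used to call a change. With equal totals per table the H3K27ac change was 0.15 (-0.074 to 0.37), an interval that includes 0. At 72 h the change as deposited was -0.14 (-0.39 to 0.11) and -0.27 (-0.57 to 0.04), and with equal totals the H3K27ac change was -0.31 (-0.57 to -0.063), an interval below 0. As deposited, the step from 16 h to 72 h was -0.54 (-0.76 to -0.32) and -0.85 (-1.12 to -0.59).

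ELL2 gave a different course in the 2 marks. In H3K27ac its summed contact was 47.9, 54.0, 49.6, 69.2 and 55.5. The 16 h value was the highest and stood 0.53 (0.26 to 0.81) above 0 m on the log2 scale, and 0.48 (0.23 to 0.73) above 4 h. With equal totals the 16 h change against 0 m was 0.28 (0.0082 to 0.56). In H3K4me3 the values were 77.8, 85.7, 131.3, 109.6 and 86.3. There the highest value was at 4 h, with a log2 change against 0 m of 0.75 (0.57 to 0.94), past the 1.5-fold limit, and the 16 h change was 0.49 (0.28 to 0.71). From 4 h to 16 h H3K4me3 contact was lower by a log2 change of -0.26 (-0.40 to -0.12). The 4 h H3K4me3 table was the deepest, and its total after scaling was 0.22 log2 units above that of 0 m. With equal totals per table the 4 h change of ELL2 was 0.53 (0.35 to 0.72), no longer past the limit.

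At the shared EAF2 and IQCB1 promoter, H3K27ac contact was 24.4, 28.4, 24.8, 32.1 and 30.5. The 16 h difference from 0 m, 0.39 on the log2 scale, had an interval (-0.00 to 0.80) that reached 0. H3K4me3 contact was 76.7, 103.8, 107.6, 119.3 and 93.5, so all 4 times with DHT were above 0 m. Their log2 changes against 0 m were 0.44 (0.20 to 0.68), 0.49 (0.30 to 0.68), 0.64 (0.43 to 0.85) and 0.28 (0.05 to 0.52), of which the one at 16 h passed the 1.5-fold limit. With equal totals per table that change was 0.50 (0.29 to 0.71), under the limit. EAF2 was the member with an H3K4me3 interval above 0 at 30 m.

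HPGD contact was close to the floor of the data. The 5 loops held 24 read pairs over all H3K27ac tables and 70 over all H3K4me3 tables, under the 100 asked of a promoter for a call. Summed H3K27ac contact was 1.18, 1.26, 1.07, 1.49 and 0.263 from 0 m to 72 h, the last from 1 read pair, and H3K4me3 contact was 2.54, 2.05, 2.77, 1.35 and 3.57. The 16 h log2 changes of 0.34 (-1.64 to 2.56) and -0.91 (-2.57 to 0.69) leave the direction undetermined at this depth. The strongest HPGD loop, 15 kb long with its far anchor in a noncoding transcript upstream, held 2 of 7 H3K4me3 read pairs at 16 h and 6 of 13 at 72 h.

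**Figure D1:**
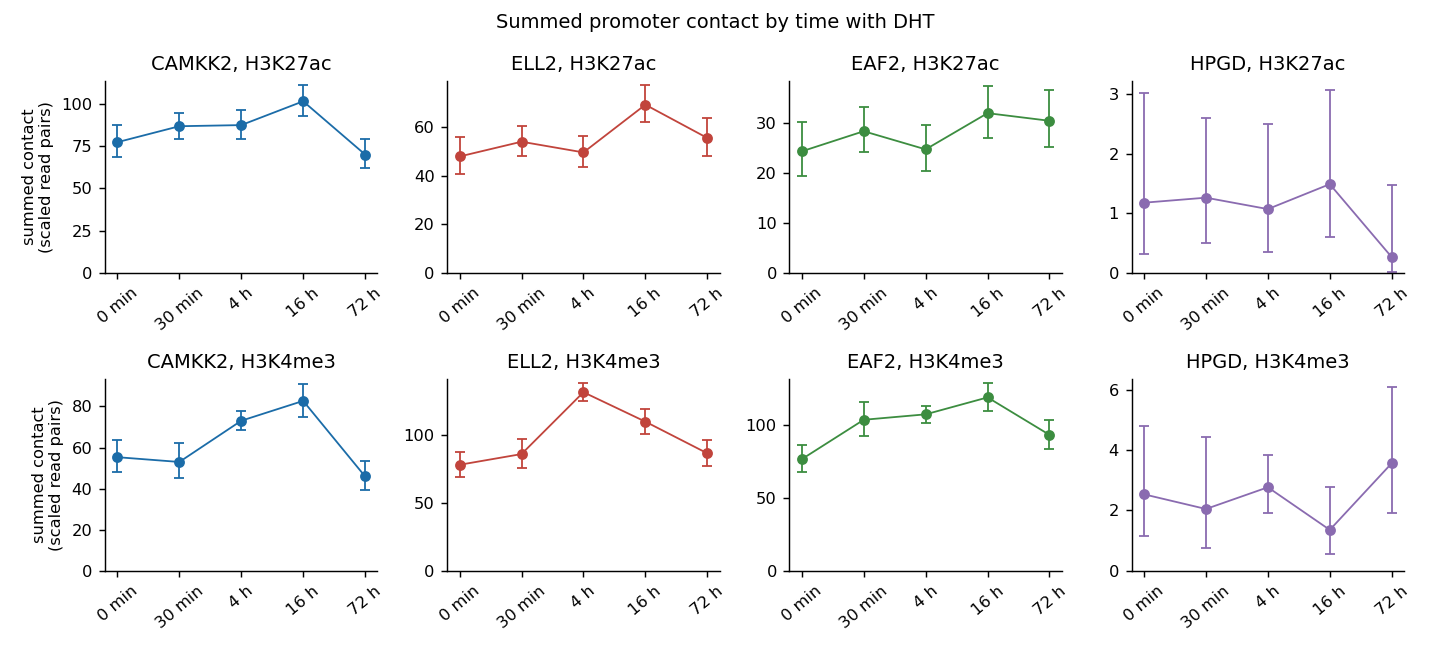
Summed promoter contact (scaled read pairs, y axis from 0) of the 4 genes with vehicle (0 m) and at 4 times with DHT (x axis), H3K27ac above and H3K4me3 below. Points are the 1 value per table and bars the exact Poisson 95% interval of its read pairs. CAMKK2 was highest at 16 h in both marks, ELL2 at 4 h in H3K4me3 (131.3), and HPGD stayed under 4 with wide bars.

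The changes were set against those of all promoters with at least 100 read pairs. At 16 h, 17.9% of 12441 promoters were at least 1.5-fold higher in H3K27ac and 4.75% of 13159 in H3K4me3. The balance in H3K27ac turned with the scaling, from 17.9% higher and 9.52% lower as deposited to 7.70% higher and 19.0% lower with equal totals, and the H3K4me3 share higher was then 2.38%. Of CAMKK2, ELL2 and EAF2, the 3 members with enough read pairs, 0 passed that limit in H3K27ac and 1, EAF2, in H3K4me3, where with equal totals 0 passed. On the log2 scale the median 16 h change over promoters was 0.13 (H3K27ac) and 0.12 (H3K4me3). In H3K27ac 70.0% of promoters had a lower 16 h change than CAMKK2, 79.0% than ELL2 and 70.1% than EAF2. In H3K4me3 the shares were 95.2%, 92.2% and 96.4%. At 4 h in H3K4me3, 14.5% of promoters were at least 1.5-fold higher, ELL2 among them, and 92.9% of promoters had a lower change than ELL2. With equal totals 5.64% were higher and 6.49% lower, against 2.53% lower as deposited. At 72 h the H3K27ac median was 0.16, and 26.2% of promoters had a lower change than CAMKK2, 54.5% than ELL2 and 64.0% than EAF2. The H3K4me3 median was -0.15, and 34.4% of promoters had a lower change than CAMKK2, 83.3% than ELL2 and 90.9% than EAF2. In H3K27ac, 18.7% of promoters were at least 1.5-fold higher at 30 m, 4.3% at 4 h and 17.6% at 72 h. Those at least 1.5-fold lower were 3.62%, 1.31% and 7.06%. A course with 4 h close to 0 m was therefore common among promoters in H3K27ac.

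**Figure D2:**
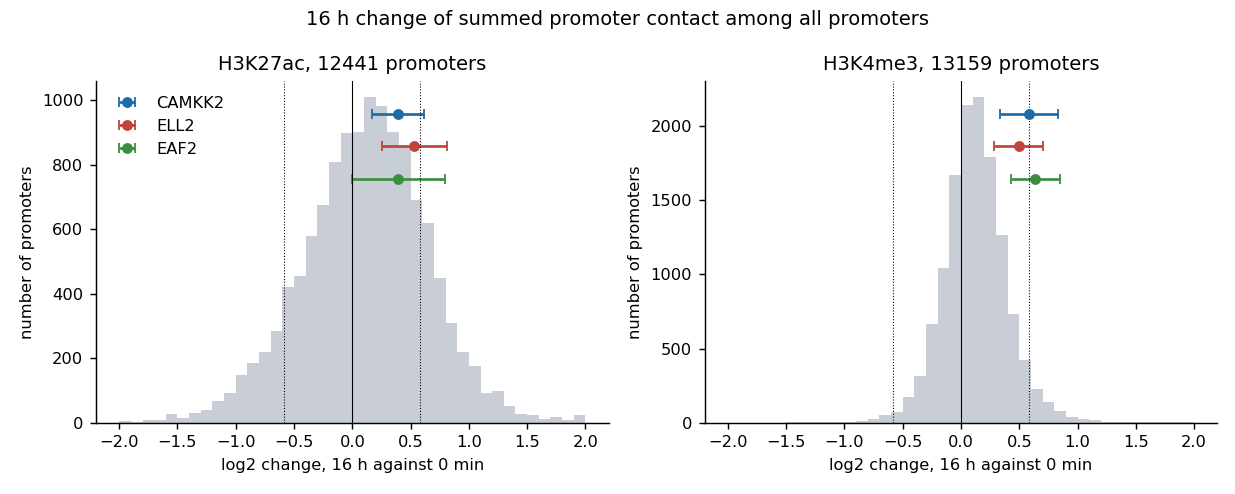
Histograms of the log2 change of summed contact at 16 h against 0 m for all promoters with at least 100 read pairs (x axis, values beyond 2 drawn at 2; y axis, number of promoters), with CAMKK2, ELL2 and EAF2 and their 95% counting intervals drawn at arbitrary heights. Dotted lines mark 1.5-fold. The 3 genes lie inside the broad H3K27ac distribution and in the upper tail of the narrower H3K4me3 distribution.

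The strongest CAMKK2 loop was 5 kb long, from the bin that holds the start site to the next bin upstream, and both of its anchors lay in the promoter window, the far one by its edge only. That edge anchor was also the near anchor of other CAMKK2 loops described below, among them those to the ANAPC5 and RNF34 promoters. Such loops do not start from the bin that holds the start site. The H3K27ac contact of the strongest loop was 21.7, 25.4, 24.4, 38.6 and 20.8 from 0 m to 72 h, highest at 16 h. It held 28.1% (exact binomial 95% interval 22.8% to 34.0%) of the CAMKK2 H3K27ac read pairs at 0 m and 38.1% (33.7% to 42.6%) at 16 h. The 16 h log2 change of this loop was 0.83 (0.43 to 1.24), whereas CAMKK2 loops of at least 20 kb summed to 0.08 (-0.22 to 0.38). In H3K4me3 the loop had a contact of 20.02, 21.5, 30.8, 30.5 and 13.7, and its share was 36.2% at 0 m and 36.9% (32.3% to 41.7%) at 16 h.

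Of the other CAMKK2 loops, 23 ran downstream and 17 upstream. Those upstream reached into ANAPC5, a subunit gene of the anaphase-promoting complex, and on to RNF34 and KDM2B. Summed H3K27ac contact at 0 m was 32.0 over the upstream loops and 23.5 over the downstream loops, and H3K4me3 contact was 17.8 and 17.5. The loop to an ANAPC5 intron 17.99 kb upstream had an H3K27ac contact of 8.23, 10.6, 9.40, 12.95 and 8.42, with a 16 h log2 change of 0.65 (-0.01 to 1.35), and one to an RNF34 intron 118.0 kb upstream had 5.88, 5.94, 4.27, 6.79 and 3.42. In H3K4me3 the loop to the ANAPC5 promoter, 53.0 kb upstream, had 3.38, 3.42, 6.18, 6.38 and 2.75 and was higher at 4 h and 16 h, with a 16 h change of 0.91 (-0.08 to 2.003). The loop to the promoter of RNF34, an E3 ubiquitin ligase, 103.0 kb upstream, had an H3K4me3 contact of 0.846, 2.39, 1.90, 3.48 and 1.65 and a 16 h change of 2.04 (0.26 to 4.45) from 3 and 18 read pairs.

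Of the CAMKK2 loops with at least 30 read pairs over the 5 time points, 3 of 13 were at least 2-fold higher in H3K4me3 at 16 h and 0 were lower, where 13.7% and 6.51% of all such loops were. In H3K27ac 1 of 15 was higher and 1 lower, where 16.8% and 11.1% of all such loops were. The H3K27ac loop that was lower had its far anchor at a KDM2B exon 143.0 kb upstream, with a contact of 2.94, 2.70, 2.14, 1.27 and 0.526. Its change was -1.21 (-2.95 to 0.40) at 16 h and -2.48 (-5.71 to -0.25) at 72 h, from 10, 6 and 2 read pairs at 0 m, 16 h and 72 h. The loop that was higher, to a KDM2B intron 163.0 kb upstream, rested on 2 read pairs at 0 m and 7 at 16 h, and its interval (-1.05 to 4.64) was wide.

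The strongest ELL2 loop joined the promoter to an ELL2 intron 5.06 kb downstream. Its H3K27ac contact was 5.29, 9.18, 6.41, 18.7 and 11.8. The 16 h and 72 h values were the highest, with log2 changes of 1.82 (1.08 to 2.64) and 1.16 (0.35 to 2.04). Its share of the ELL2 H3K27ac read pairs was 11.04% (6.68% to 16.9%) at 0 m and 26.99% (22.3% to 32.2%) at 16 h. Without this loop the 16 h change of summed H3K27ac contact at ELL2 was 0.25 (-0.06 to 0.55). In H3K4me3 the same loop was highest at 4 h, with values of 8.18, 10.6, 20.6, 10.8 and 7.15, a 4 h change of 1.33 (0.78 to 1.94) and a 16 h change of 0.40 (-0.27 to 1.10). A loop to the bin 9.95 kb upstream had an H3K4me3 contact of 4.51, 6.49, 10.1, 8.31 and 6.60, also highest at 4 h.

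ELL2 has a long stretch upstream without protein-coding genes, crossed by noncoding transcripts, and 36 of its 51 loops pointed that way. The loop to the bin 370 kb upstream had an H3K27ac contact of 1.18, 1.08, 2.35, 4.03 and 3.68 and an H3K4me3 contact of 0.282, 1.37, 3.57, 2.90 and 1.92. Both marks were higher at 4 h, 16 h and 72 h than at 0 m, with a 16 h change of 1.78 (0.19 to 3.79) in H3K27ac and 3.36 (0.66 to 8.76) in H3K4me3, the latter from 1 read pair at 0 m. The bin 195 kb upstream had 0.588, 2.34, 1.71, 3.40 and 2.37 in H3K27ac and 0.846, 1.37, 3.41, 3.09 and 1.65 in H3K4me3. Its 16 h changes were 2.53 (0.44 to 5.70) and 1.87 (0.07 to 4.29), both from few read pairs at 0 m. The loop to the bin 105 kb upstream had an H3K4me3 contact of 1.41, 2.73, 2.06, 3.48 and 1.37 and a 16 h change of 1.30 (-0.18 to 3.09).

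The 4 ELL2 loops that ended between 345 and 380 kb upstream, chosen after their values were seen, were summed as a description only. Their H3K4me3 contact was 5.36, 6.49, 14.1, 14.1 and 8.52. Their H3K27ac contact was 7.35, 6.66, 7.48, 9.55 and 6.84. Of the 32 ELL2 loops with at least 30 read pairs in H3K4me3, 2 were at least 2-fold lower at 16 h. The first of these, to the bin 175 kb upstream, had 2.54, 1.37, 1.11, 0.387 and 1.37 and a 16 h change of -2.71 (-5.96 to -0.44) from 9 and 2 read pairs. The other, to the bin 300 kb upstream, had a change of -1.28 (-3.97 to 1.08) from 5 and 3 read pairs. Downstream, the loop to LINC01554, a noncoding gene 105 kb away, had an H3K4me3 contact of 1.97, 3.76, 5.15, 5.41 and 3.02 and a 16 h change of 1.46 (0.23 to 2.89). Of the ELL2 loops with at least 30 read pairs, 9 of 32 were at least 2-fold higher in H3K4me3 at 16 h (all such loops 13.7%) and 2 lower (6.51%). In H3K27ac 4 of 14 were higher (16.8%) and 0 lower (11.1%).

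The strongest loop at EAF2 joined the shared promoter to an IQCB1 exon 6.56 kb upstream. Its H3K27ac contact was 4.70, 5.40, 5.34, 4.46 and 5.00, with a 16 h log2 change of -0.08 (-1.08 to 0.96). Its H3K4me3 contact was 15.8, 15.4, 18.8, 25.1 and 17.0, highest at 16 h with a change of 0.67 (0.21 to 1.15). The share it held of the H3K4me3 read pairs was 20.6% at 0 m and 21.1% (17.9% to 24.5%) at 16 h. The loop to an EAF2 intron 8.44 kb downstream had an H3K4me3 contact of 6.77, 11.3, 9.59, 12.6 and 10.99, above 0 m at all 4 times with DHT, and a 16 h change of 0.89 (0.20 to 1.63).

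Longer EAF2 loops reached the neighbours on both sides. By mean contact they were weaker than the loops above in H3K4me3, whereas in H3K27ac the loop to GOLGB1 ranked above that to the EAF2 intron. The loop to the promoter of GOLGB1, a Golgi protein gene 86.6 kb upstream, had an H3K4me3 contact of 5.92, 8.54, 8.79, 8.31 and 4.67 and an H3K27ac contact of 2.06, 3.78, 1.28, 3.40 and 4.21. The loop to an intron of SLC15A2, a peptide transporter gene 83.4 kb downstream, had an H3K4me3 contact of 0.846, 1.02, 2.38, 4.06 and 0.825, highest at 16 h, with a change of 2.26 (0.52 to 4.65) from 3 and 21 read pairs. An anchor between genes 133.4 kb downstream had 1.69, 4.10, 3.49, 5.22 and 1.65, with a 16 h change of 1.62 (0.32 to 3.19). In both of these loops the 72 h value was near that of 0 m. They were named for passing 2-fold at 16 h, a choice that favours a low 0 m and a high 16 h value. At 72 h in H3K4me3, 4 of 28 EAF2 loops with at least 30 read pairs were at least 2-fold higher than at 0 m and 1 lower. The shares of all such loops were 9.65% and 13.8%. Of the EAF2 loops with at least 30 read pairs, 9 of 28 were at least 2-fold higher in H3K4me3 at 16 h (all such loops 13.7%) and 0 lower (6.51%). In H3K27ac 0 of 4 passed the limit in either direction (16.8% and 11.1%). The median 16 h log2 change over loops with at least 30 read pairs in H3K4me3 was 0.87 for CAMKK2, 0.54 for ELL2 and 0.72 for EAF2, beside 0.13 over all such loops of the series.

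**Figure D3:**
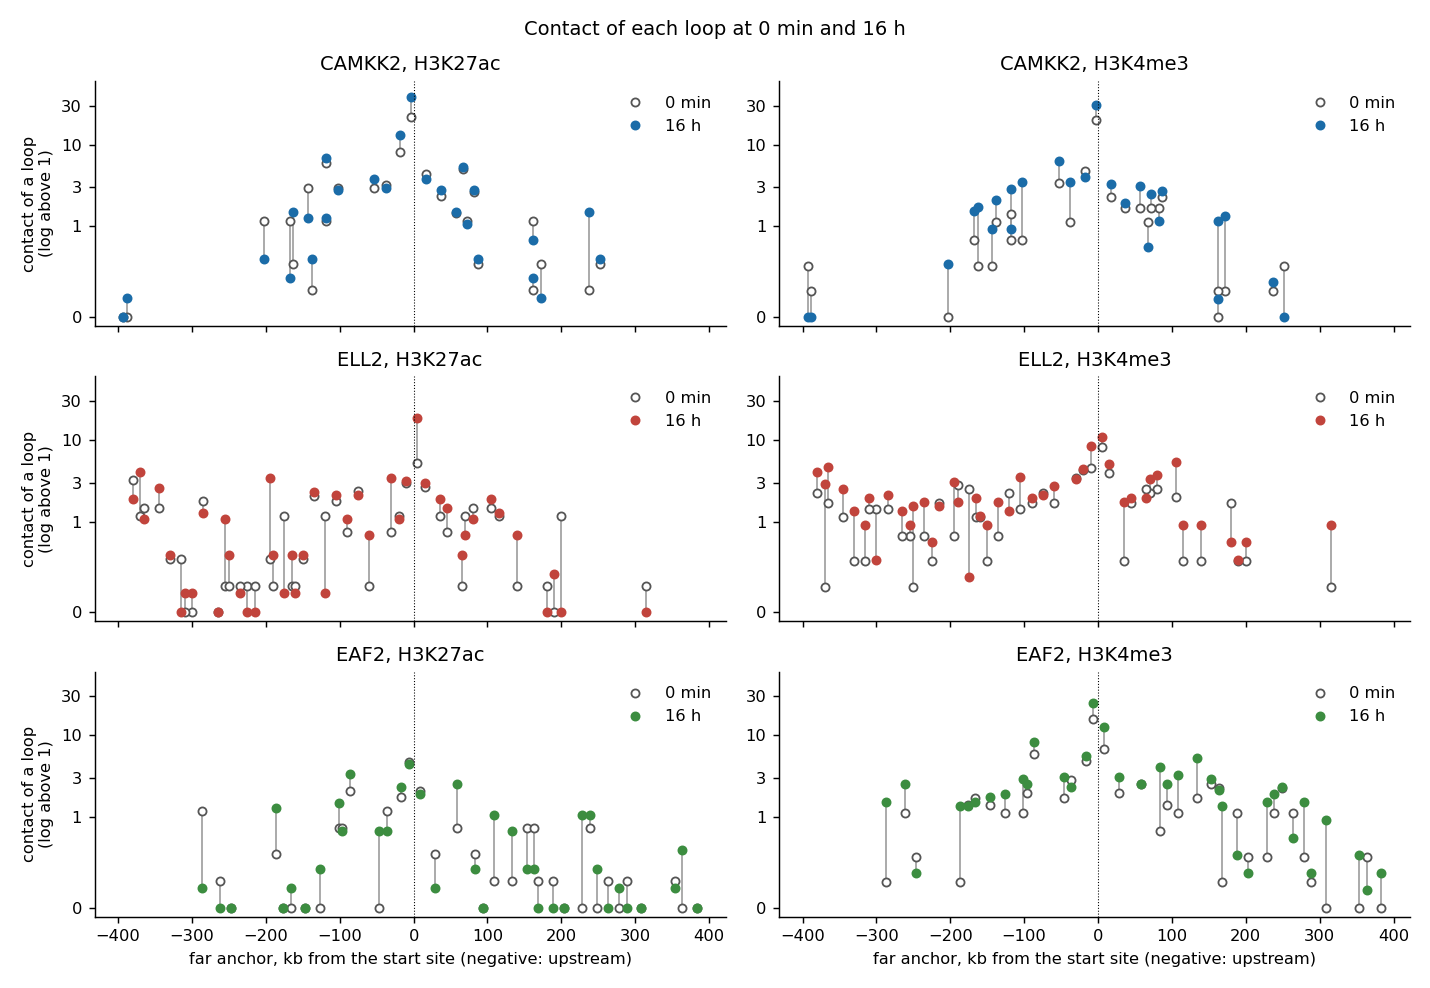
Contact of each loop (scaled read pairs, y axis linear to 1 and logarithmic above) at 0 m (open) and 16 h (filled) against the distance of its far anchor from the start site in kb (x axis, upstream negative, loops beyond 400 kb not drawn). In H3K27ac at 16 h the highest points of CAMKK2 (38.6) and ELL2 (18.7) are loops close to the start.

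Change was also summed by loop length. In H3K27ac, the loops under 20 kb changed by 0.78 (0.44 to 1.13) at CAMKK2 and 1.19 (0.65 to 1.77) at ELL2 at 16 h, while those of EAF2 gave 0.03 (-0.69 to 0.77). These classes held 2, 3 and 3 loops. The strongest CAMKK2 loop held 74 of the 102 read pairs of its class at 0 m and 182 of 243 at 16 h. For the strongest ELL2 loop these were 18 of 37 and 88 of 117, so a single loop weighs heavily in each class. Loops under 20 kb at all promoters together changed by 0.57, and those of 20 to 100 kb by 0.13. In each longer class taken alone, the H3K27ac intervals of CAMKK2, ELL2 and EAF2 included 0. All loops of at least 20 kb together changed by 0.56 (0.075 to 1.06) at EAF2 and by 0.26 (-0.065 to 0.59) at ELL2. In H3K4me3, loops of 100 to 300 kb changed by 1.19 (0.56 to 1.87) at CAMKK2, 0.45 (0.08 to 0.82) at ELL2 and 0.69 (0.32 to 1.07) at EAF2, where such loops at all promoters changed by 0.14. ELL2 loops of 300 kb or more changed by 0.89 (0.38 to 1.42) in H3K4me3, beside 0.17 at all promoters, and those of CAMKK2 by -0.13 (-0.998 to 0.76).

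**Figure D4:**
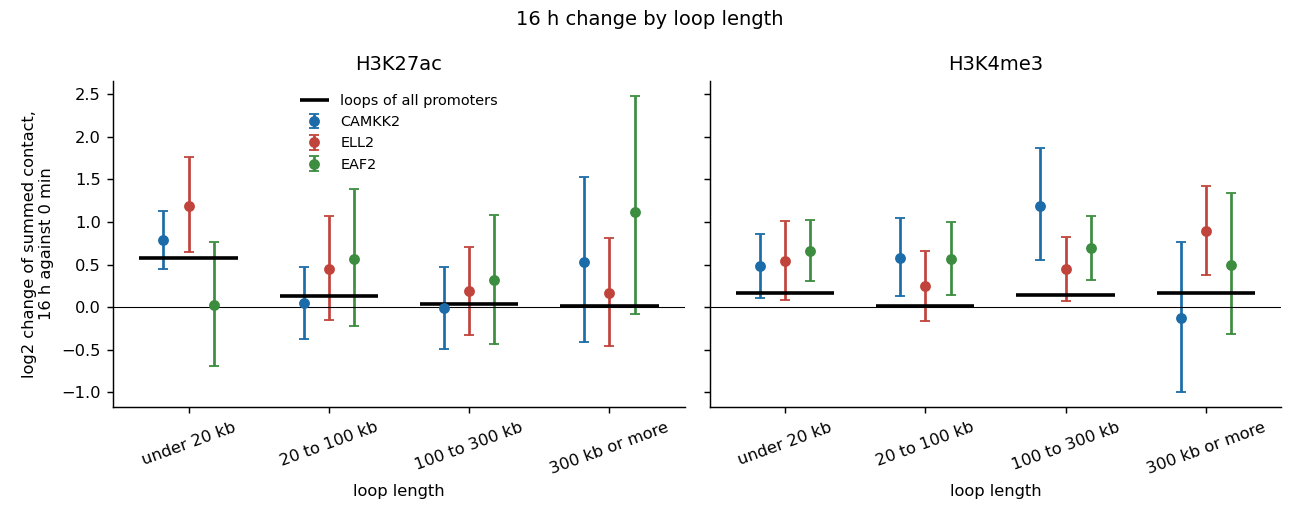
The log2 change of summed contact at 16 h against 0 m (y axis) in 4 classes of loop length (x axis) for CAMKK2, ELL2 and EAF2, with 95% counting intervals. Black lines give the loops of all promoters together. In H3K27ac the intervals of CAMKK2 and ELL2 lay above 0 in loops under 20 kb (0.78 from 2 loops and 1.19 from 3 loops), where all promoters also changed by 0.57. These intervals included 0 in the longer classes. In H3K4me3 longer loops of the 3 genes lay above the black lines except CAMKK2 at 300 kb or more.

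The other genes of the same pathways were described from lists by their counts. Of 18 genes around CaM kinase kinases and AMPK, 16 had enough read pairs. In H3K27ac at 16 h, 5 of 16 were at least 1.5-fold higher (background 17.9%) and 1 lower (background 9.52%), and with equal totals 3 were higher and 2 lower (7.70% and 19.0%). In H3K4me3 0 were higher (background 4.75%) or lower (background 0.882%). Their median H3K27ac change was -0.00. CAMKK1, the paralogue of CAMKK2, had a summed H3K27ac contact of 91.4, 165.2, 88.7, 233.5 and 154.5 and a 16 h log2 change of 1.35 (1.17 to 1.54), beside -0.07 (-0.28 to 0.14) in H3K4me3. PRKAA2, a catalytic subunit of AMPK, changed by 1.71 (1.27 to 2.18) in H3K27ac, ULK1, an autophagy kinase that AMPK phosphorylates, by 1.74 (1.28 to 2.23), and the calmodulin genes CALM2 and CALM3 by 0.69 and 0.76. STK11, the other main kinase upstream of AMPK, was lower, with 42.9, 48.0, 48.7, 24.0 and 31.6 and a change of -0.84 (-1.21 to -0.47).

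Of 18 genes of the elongation complexes, all with enough read pairs, 4 were at least 1.5-fold higher in H3K27ac at 16 h (background 17.9%) and 1 lower (9.52%), and with equal totals 3 were higher and 3 lower (7.70% and 19.0%). In H3K4me3 0 passed (4.75% higher and 0.882% lower). ELL3, a paralogue of ELL2, had 45.8, 72.2, 51.5, 90.4 and 75.8 in H3K27ac, a change of 0.98 (0.71 to 1.25), while the paralogue ELL changed by -0.14 (-0.39 to 0.11). AFF4, the scaffold of the super elongation complex, changed by 0.79, and HEXIM1 and HEXIM2, which hold the elongation kinase P-TEFb inactive, by 0.88 and 1.02. EAF1, the paralogue of EAF2, was lower, with 20.3, 21.8, 18.6, 12.5 and 17.1 and a change of -0.69 (-1.22 to -0.17).

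Of 19 genes of prostaglandin synthesis, breakdown and signalling, 11 had enough read pairs. In H3K27ac 2 were at least 1.5-fold higher at 16 h, the synthase PTGES3 (0.73) and the reductase PTGR2 (0.70), and 1 was lower, the prostaglandin D synthase gene PTGDS (-1.16, -2.09 to -0.26), close to the backgrounds of 17.9% and 9.52%. With equal totals 0 were higher and 2 lower (7.70% and 19.0% of all promoters). In H3K4me3 the receptor genes PTGER3 (0.78, -0.67 to 2.43) and PTGER4 (0.65, 0.15 to 1.17) were past the limit (background 4.75%), and 0 were lower (0.882%). With equal totals 1 was higher (2.38% of all promoters), PTGER3, whose interval as deposited includes 0. The list medians at 16 h were -0.02 in H3K27ac and 0.18 in H3K4me3, beside 0.13 and 0.12 over all promoters.

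Promoters on other chromosomes with the course most like that of each gene were ranked by Pearson's r over the 10 tables, of log2 contact taken relative to the median promoter of each table and centred within each mark. CAMKK2 was closest to C2orf49 (0.94), RPS3 (0.91) and SLX4 (0.91) among 11526 promoters. ELL2 was closest to LRIG1 (0.97), TOR1AIP2 (0.97) and AP1S3 (0.96), and EAF2 to FGF18 (0.95), SLC9B2 (0.92) and LEO1 (0.91). Between the members, r was 0.56 for CAMKK2 and ELL2, 0.62 for ELL2 and EAF2, and 0.26 for CAMKK2 and EAF2. The 10 tables are shared by every promoter, and HPGD was not ranked for want of read pairs. The named promoters had the highest r of at least 11504 compared, each over 10 values. High values come with such a ranking, and a shared course was not tested.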

How the data were processed

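Per the study's methods and the submitters' processing notes, the authors trimmed reads with Trim Galore 0.5.0, aligned them to hg19 with HiC-Pro 3.1.0 and Bowtie2, removed duplicates, and called reference loops in 5 kb bins with FitHiChIP after merging the 5 time points of each mark, so no table has loops of its own. The deposited signal of a loop is its read pair count after TMM scaling among the 5 time points of a mark. Whether both H3K27ac samples entered a value is not given in the sources used here. All values of a table were whole multiples of 1 step (100%, tolerance 0.001), from which read pairs were recovered.

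Anchors in the tables are 1 kb wide, centred in 5 kb bins, and none lay beyond the end of its GRCh37 chromosome. Loops listed in both sets were counted once. Starts were those of canonical transcripts in Gencode release 44 lifted to GRCh37. Changes are log2 ratios of summed contact with exact conditional binomial 95% intervals, and shares have exact binomial intervals (Python 3.11.15, scipy 1.17.1). These cover counting error only, and read pairs carry no molecular identifiers. With 1 value per time point no test between groups was possible and no p-value is given. Promoters needed 100 read pairs over the 5 time points of a mark and were called past 1.5-fold. Single loops needed 30 and were called past 2-fold, a loop at 0 in 1 of the tables counting as past it. Named loops were the 3 with the highest mean contact for each gene and mark and a selection of those past 2-fold at 16 h. The 16 h intervals of loops named for passing 2-fold are a description only, since the choice used the same values. Named list genes were those past 1.5-fold at 16 h, with ELL added as a paralogue after its value was seen. The 4 genes, the lists and the limits were chosen with earlier results of these data known. The scripts were tested on simulated data. A marker gene and a motif search are not reported here. Alternatives are given in the closing section.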

Additional observations from a re-analysis of the deposited data

Results flagged for a closer look

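The CAMKK2 promoter was singled out because its changes against 0 m at 16 h and at 72 h had opposite signs in both marks and the direct difference between 16 h and 72 h had an interval apart from 0. HPGD also had opposite signs, but its difference did not exclude 0. In H3K27ac these were 0.39 and -0.14 on the log2 scale, and the direct difference of 72 h from 16 h was -0.54 (95% counting interval -0.76 to -0.32). In H3K4me3 they were 0.58 and -0.27, and the difference was -0.85 (-1.12 to -0.59). The 72 h changes themselves had intervals that included 0 (-0.39 to 0.11 and -0.57 to 0.04). As the median over loops of the change in log2(contact + 1), the H3K27ac change at 72 h was 0.0. With equal totals per table it was -0.31 (-0.57 to -0.063), while the 16 h change was 0.15 (-0.074 to 0.37). In H3K4me3 the changes with equal totals were 0.45 (0.20 to 0.70) at 16 h and -0.14 (-0.45 to 0.16) at 72 h. The 16 h and 72 h changes share the 0 m table, and the difference was not tested between replicates, since each time point has 1 value per mark. Over all promoters, the median change against 0 m was 0.13 at 16 h and 0.16 at 72 h in H3K27ac, and 0.12 and -0.15 in H3K4me3. A fall from 16 h to 72 h was not particular to CAMKK2. For ELL2 the difference was -0.32 (-0.57 to -0.06) in H3K27ac and -0.34 (-0.55 to -0.14) in H3K4me3. For EAF2 it was -0.07 (-0.43 to 0.29) and -0.35 (-0.55 to -0.16).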

How the results depend on the processing

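No paired analysis was possible because each time point of a mark has 1 deposited value and the tables carry no replicate numbers, and for the same reason no replicate could be left out. For CAMKK2 in H3K27ac the change was 0.15 (-0.074 to 0.37) with equal read pair totals per table, 0.077 for loops of at least 20 kb and 0.073 as the median over loops of the change in log2(contact + 1). That median was also 0.19 for CAMKK2 in H3K4me3, 0.044 for ELL2 in H3K27ac and 0.33 for EAF2 in H3K4me3. Without its strongest loop, an alternative chosen after seeing the data, ELL2 in H3K27ac was 0.25 (-0.058 to 0.55) and CAMKK2 0.18 (-0.090 to 0.45). The 1.5-fold calls in H3K4me3, ELL2 at 4 h and EAF2 at 16 h, were lost with equal totals (0.53 and 0.50). The median over loops of the change in log2(contact + 1) was 0.33 for both. The added 1 shrinks the changes of weak loops, so this median cannot be set against the limit. Without the added 1, the median over loops with at least 30 read pairs was 0.55 and 0.72. At 16 h CAMKK2 in H3K4me3 and ELL2 in H3K27ac, under the limit as deposited, passed it in some alternatives (0.59 to 0.70, and 0.71 and 0.72). The wider 5 kb window gave the deposited values again for all 4 genes, so it says nothing about their stability. Over all alternatives the 16 h change ranged from 0.07 to 0.42 in H3K27ac and from 0.19 to 0.70 in H3K4me3 for CAMKK2, from 0.04 to 0.72 and from 0.33 to 0.52 for ELL2, and from 0.00 to 0.58 and from 0.33 to 0.66 for EAF2. For HPGD, H3K27ac ranged from -0.09 to 0.85 and H3K4me3 from -1.04 to -0.39. Those with an interval included 0, and the medians over loops have none.

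The share of the strongest loop at 16 h, computed over loops of at least 20 kb, was 13.6% (H3K27ac) and 13.3% (H3K4me3) for CAMKK2, 9.09% and 5.20% for ELL2, and 10.9% in H3K4me3 for EAF2. Over loops called in the same mark only it was 49.8% for CAMKK2 in H3K4me3, 35.8% for ELL2 in H3K27ac, and 21.2% (H3K27ac) and 14.4% (H3K4me3) for EAF2. The share of promoters past 1.5-fold at 16 h depended on the scaling and the minimum. With equal totals it was 7.70% higher and 19.0% lower in H3K27ac (17.9% and 9.52% as deposited) and 2.38% higher and 1.97% lower in H3K4me3 (4.75% and 0.882%). With 30 read pairs it was 7.59% higher and 2.41% lower in H3K4me3. With no minimum it was 14.6% lower in H3K27ac, and 8.83% higher and 3.71% lower in H3K4me3. With equal totals the list counts in H3K27ac were 3 higher and 2 lower for CaM kinase kinases and AMPK, 3 and 3 for elongation complexes, and 0 and 2 for prostaglandins, where H3K4me3 gave 1 higher. Equal totals lower every 16 h change by 0.25 in H3K27ac and 0.14 in H3K4me3. The causes were not tested.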
